A study of Mus musculus with 4 samples.

Results

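The Rab genes encode small GTPases that sit on the membranes inside a cell and direct traffic between them. Members were all probes of the array whose platform gene symbol is Rab followed by a digit. Proteins that only bind Rabs, such as the Rab11fip family, and Rab5if, which is no Rab, were left out. This gave 87 probes for 57 genes, out of 25697 probes on the array. The rule used names and no measured value, but was chosen with earlier results of these data known.

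A Rab protein is switched on when it exchanges GDP for GTP and off when it hydrolyses GTP. In its active form it recruits effectors that move, tether or fuse a vesicle. Each Rab marks a compartment, so that early endosomes, recycling endosomes, late endosomes and the secretory route carry different members. Vesicles taken up by a cell are passed along the endosomal members of the family, and the release of vesicles by a cell also depends on Rabs.

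Expression was measured on 2 arrays of fibroblasts that had received microvesicles and 2 arrays of control fibroblasts. All were NIH-3T3 cells, an immortalized mouse fibroblast line, grown in Claycomb medium, and the microvesicles had been purified from medium of cultured cardiomyocytes. What the control cells were given, and whether replicates were separate cultures, is not stated, and the p-values therefore cover no more than the differences between these arrays, possibly technical ones. The treated arrays were at chip positions G and H and the controls at A and B, so position and treatment cannot be told apart.

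The arrays were dim and unequal in brightness. The median brightness of all probes was 39.9 and 40.2 with microvesicles and 41.1 and 41.2 in controls. The 95th percentile was 75.1 and 59.6 with microvesicles and 76.2 and 115 in controls, so that microvesicle replicate 2 was the dimmest array and control replicate 2 the brightest. Of the 10 fibroblast markers looked for, 9 were on the array, and the same number, 5, was detected on both arrays with microvesicles and on both control arrays, while Col1a1 and Pdgfra were detected on no array. Of 12 cardiomyocyte markers, 11 were on the array, 0 were detected on both arrays of either group and 9 on no array. The summed brightness of the fibroblast markers was 2771 and 1473 with microvesicles and 1525 and 3074 in controls. Among them 1 of 2 kept probes of Sparc passed as higher (log2 fold change 0.82, limma adjusted p = 0.0469), and Col1a2 had -0.75 (adjusted p = 0.0528). The summed brightness of the cardiomyocyte markers was 545 and 560 with microvesicles and 557 and 571 in controls.

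Most Rab probes were not detected above the negative controls of the array (detection p under 0.05). With microvesicles 19 and 16 of the 87 probes were detected, and in controls 23 and 24. Over all probes the share detected was 19.0% and 14.6% with microvesicles and 17.1% and 20.5% in controls. Thus microvesicle replicate 1 detected fewer Rab probes than control replicate 1, though it detected more probes in all. On no array were 57 Rab probes detected, and 32 of the 57 genes had no probe detected anywhere. Their transcripts may still have been present below what these dim arrays detect.

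A probe was kept for testing if a group, with microvesicles or control, detected it on each of its arrays. This kept 18 Rab probes (20.7%), against 14.6% of all probes. They represent 16 genes. Of the 18, 13 were detected on all 4 arrays. The other 5, for Rab4b, Rab33b, Rab39b, Rab8b and Rab27a, were detected on both control arrays and on 1 microvesicle array. No probe was kept through the microvesicle group alone. The same split over all kept probes was not computed. The array held 9 early endosome probes (4 kept), 10 recycling probes (2 kept), 19 late endosome and lysosome probes (5 kept), 23 probes of the endoplasmic reticulum (ER) and Golgi (2 kept), 17 of exocytosis (5 kept) and 9 of other Rabs (0 kept).

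**Figure D1:**
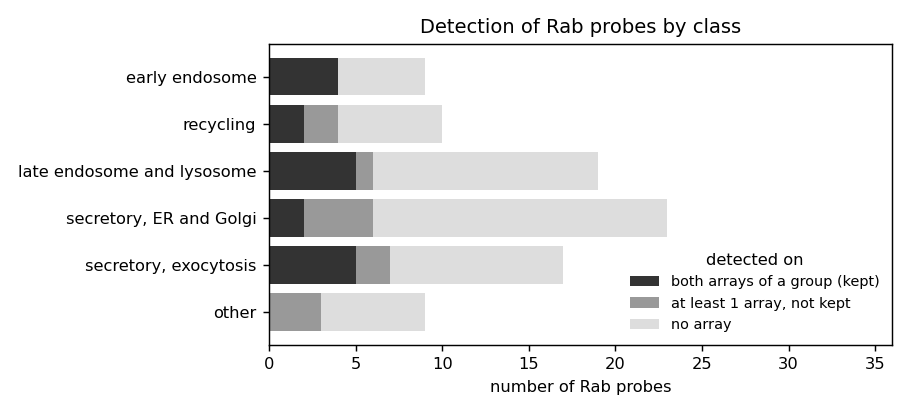
Number of Rab probes in each class by where they were detected (x axis, number of probes; rows, class; dark, kept; grey, detected on at least 1 array but not kept; light, detected on no array). The early endosome class had 4 of 9 probes kept and the ER and Golgi class 2 of 23.

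A further 12 probes were detected somewhere but not kept. Of these, 8 were detected on a control array alone, 1 on a microvesicle array alone and 3 in both groups. This split was not computed over all probes, whose detected share ran from 14.6% on microvesicle replicate 2 to 20.5% on control replicate 2. The control-only group held probes of Rab11a and Rab25, both of recycling endosomes, of Rab1b, Rab2a and Rab19, of Rab27b, and of Rab28 and Rab42. The 3 probes detected in both groups read Rab1b, Rab28 and Rab8b, each on 1 array of each group. The 1 probe found with microvesicles alone belonged to Rab29, which acts at the Golgi and lysosomes. Its brightness was 45.2 and 42.0 with microvesicles and 44.7 and 38.1 in controls, so the groups overlapped.

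Among the 21 genes with several probes, probes of a gene often differed in detection. Rab9, Rab22a and Rab34 each had 3 probes, of which 1 was kept and 2 were detected on no array. Rab6a, Rab24 and Rab43 each had 3 probes and none was detected on any array. The sequences of the probes were not used here, so which transcripts each one reads, and whether near-identical family members share signal, was not tested.

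Of the 18 Rab probes tested, 2 passed as higher with microvesicles and 0 as lower (limma, adjusted p under 0.05 over all 3762 kept probes), against 3.43% of all kept probes higher and 4.12% lower. At an unadjusted p under 0.05 there were 3 of 18 Rab probes, all higher, against 11% of all kept probes higher and 13.8% lower. Both called probes read Rab7, 1 of the 16 genes, and both calls were lost in 6 other settings, including each of the 4 fits without 1 array. The median log2 fold change, microvesicles over control, was 0.017 over the 18 probes and -0.064 over all kept probes, with 9 Rab probes above 0 and 9 below. The middle 50% of the log2 fold changes lay between -0.18 and 0.20 for the Rab probes and between -0.30 and 0.23 for all kept probes.

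The 5 late endosome and lysosome probes, for 4 genes with 2 probes for Rab7, had a median of 0.42. Both microvesicle arrays lay above both control arrays in all 5. For Rab34 the gap was small, with 7.71 on microvesicle replicate 2 against 7.69 on control replicate 2. The early endosome probes had a median of -0.24 (4 probes), the recycling probes -0.052 (2), the ER and Golgi probes -0.095 (2) and the exocytosis probes -0.091 (5). Probes of Rab4b (recycling), Rab33b and Rab39b (ER and Golgi), and Rab8b and Rab27a (exocytosis) were kept through the controls alone. That entry favoured lower values with microvesicles. These class medians moved with the scaling. With medians aligned over all probes the late endosome median was -0.050 (2 of 5 probes above 0), or 0.34 relative to all kept probes, and with medians aligned over kept probes the ER and Golgi median was 0.21 and the exocytosis median 0.14. In all, both microvesicle arrays were above both controls for 6 of the 18 probes and below for 4, where 24.9% of all kept probes were above and 32.7% below. Before normalization, 0 of the 18 were above and 10 below, against 4.28% and 55.5% of all kept probes.

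**Figure D2:**
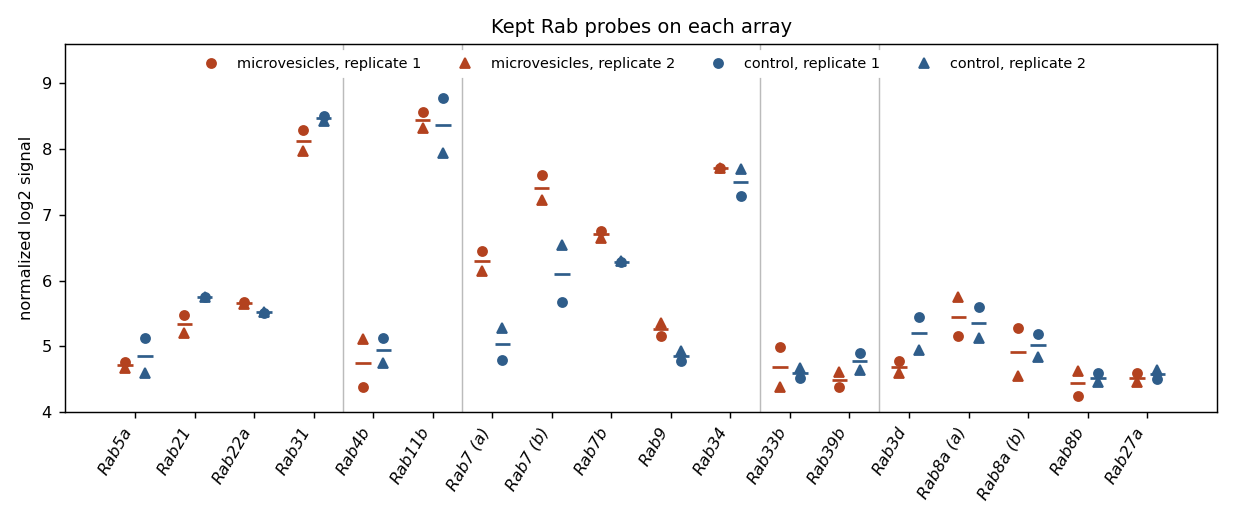
Normalized log2 signal (y axis) of each kept Rab probe (x axis, grouped by class with vertical lines between classes) on the 4 arrays, microvesicles left and controls right of each pair. Circles and triangles are replicates 1 and 2 and the short lines are group means. Both Rab7 probes, a and b, have microvesicle arrays above both control arrays.

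Rab7 was the member called. It governs the maturation of late endosomes and their fusion with lysosomes, through effectors such as Rilp and the HOPS tethering complex. The gene had 3 probes. On the first, ILMN_1254837 (Rab7 a), the normalized log2 signal was 6.45 and 6.15 with microvesicles and 4.79 and 5.28 in controls. The means were 6.30 ± 0.21 with microvesicles and 5.04 ± 0.35 in controls (SD, n = 2 each), a log2 fold change of 1.26 (SE 0.22, 95% confidence interval 0.74 to 1.78) or 2.40-fold (limma adjusted p = 0.0188). Both microvesicle arrays were above both control arrays on this scale.

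On the second probe, ILMN_2618549 (Rab7 b), the normalized log2 signal was 7.61 and 7.22 with microvesicles and 5.68 and 6.54 in controls. The means were 7.41 ± 0.27 with microvesicles and 6.11 ± 0.61 in controls (SD, n = 2 each), a log2 fold change of 1.30 (SE 0.29, 95% confidence interval 0.63 to 1.98) or 2.47-fold (limma adjusted p = 0.0383). The groups did not overlap here either, and the controls lay further apart than the treated arrays. The remaining probe, ILMN_1248907, was detected on no array, with a brightness of 39.2 and 41.1 with microvesicles and 39.4 and 35.8 in controls.

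The brightness as deposited, before any scaling, overlapped between the groups on both Rab7 probes. Rab7 a had 99.4 and 66.0 with microvesicles and 51.2 and 81.2 in controls. Rab7 b had 182 and 102 with microvesicles and 70.4 and 184 in controls. Control replicate 2, the brightest array in general, was above microvesicle replicate 2 on both probes. The standard errors over the 36 to 49 beads of a probe were 2.39 to 5.12 for Rab7 a and 3.86 to 8.88 for Rab7 b, and cover measurement on 1 array only.

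**Figure D3:**
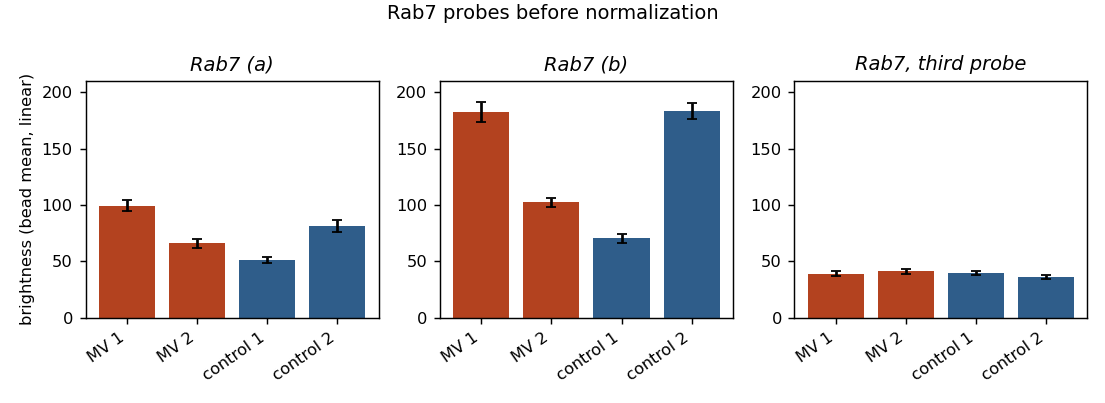
Brightness before normalization (y axis, bead mean on a linear scale; bars, standard error over beads) of the 3 Rab7 probes on each array (MV, microvesicles). On probes a and b control replicate 1 is the lowest array, and on probe b control replicate 2, at 184, is level with microvesicle replicate 1, at 182.

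Some settings ended the call on Rab7, and those settings called few probes of any kind. When quantile normalization was replaced by a shift that gave every array the same median over all probes (medians of all probes aligned), the log2 fold changes were 0.58 for Rab7 a (limma adjusted p = 0.588) and 0.43 for Rab7 b (adjusted p = 0.753). In that setting 0 of the 3762 probes passed in either direction (398 at an unadjusted p under 0.05). The median of all kept probes was -0.39 there, and relative to it the changes were 0.97 and 0.82. Leaving out any 1 array ended both calls, with log2 fold changes from 1.03 to 1.49 for Rab7 a and from 0.87 to 1.60 for Rab7 b, all above 0. Those fits called 0 to 9 probes higher and 0 to 1 lower in all. The same 2 probes passed without background correction, with the arrays shifted to 1 median over kept probes and with the submitters' processed values. Without the detection filter the log2 fold changes stayed at 1.26 and 1.30 and neither probe passed (limma adjusted p = 0.217 for Rab7 a and 0.451 for Rab7 b), where 14 of 25697 probes were higher and 15 lower.

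The RefSeq table gave a promoter window for 47 of the 57 genes. The Rab7 windows are shown because it was the only member called, with each read in the direction of the gene on chromosome 6 (GRCm38.p6, minus strand). Capitals mark matches, on either strand, to CCGGAA, the core of ETS factor sites, and to CCAAT, the CCAAT box. The first window, chr6:88045221-88045520, covers the start further upstream and the second, chr6:88044968-88045267, the start further downstream, and their ends overlap.
Rab7 upstream start: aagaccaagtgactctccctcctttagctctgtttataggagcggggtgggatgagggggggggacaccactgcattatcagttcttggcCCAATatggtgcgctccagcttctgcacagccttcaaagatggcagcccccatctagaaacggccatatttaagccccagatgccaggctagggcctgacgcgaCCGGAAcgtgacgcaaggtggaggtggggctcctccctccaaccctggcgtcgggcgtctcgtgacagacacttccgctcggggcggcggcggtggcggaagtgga
Rab7 downstream start: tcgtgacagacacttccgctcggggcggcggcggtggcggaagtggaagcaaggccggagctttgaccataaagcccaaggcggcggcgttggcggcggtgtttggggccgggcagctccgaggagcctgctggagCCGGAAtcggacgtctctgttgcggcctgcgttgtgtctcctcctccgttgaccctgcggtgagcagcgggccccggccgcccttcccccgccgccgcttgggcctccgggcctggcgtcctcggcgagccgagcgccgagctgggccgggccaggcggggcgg

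Both windows were rich in G and C (61.0% and 73.7%) and held 18 and 38 CG dinucleotides. An ETS core was present in both, 56 bases before the upstream start and 114 bases before the downstream start, and in 14.9% of all 32851 windows of this length. A CCAAT box lay 160 bases before the upstream start, as found somewhere in 37.4% of all windows. The E-box CACGTG was in neither window, against 7.15% of all windows. GGGCGG, the GC box, was found in both windows and in 35.7% of all windows, with both strands searched. The only match in the upstream window lay past the upstream start, in the stretch that the windows share, so it counts in both. TATAAA, the TATA box, had no match in the direction of the gene in either window. The upstream window matched once on the opposite strand, as TTTATA, near its end furthest from the start. On either strand, 13.6% of all windows matched. Among the 59 windows of all Rab genes, the share was 25.4% for the ETS core, 42.4% for the CCAAT box and 10.2% for the E-box. It was 67.8% for the GC box and 6.78% for the TATA box. These are matches of letters, and binding was not measured.

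Over the family, windows of the 15 kept genes that had one (18 windows) had a median GC content of 63.8% and a median of 23.5 CG dinucleotides. Those of the 25 genes detected on no array (34 windows) had 62.4% and 21.0. All 32851 windows had 52.7% and 7.0. Kept and undetected Rab genes were thus alike in this respect, and both differed from the whole set in median. The 57 genes lie on 18 chromosomes and the 16 kept genes on 11.

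The other late endosome and lysosome Rabs did not pass. Rab7b, which acts in transport from late endosomes to the Golgi, had a log2 signal of 6.76 and 6.64 with microvesicles and 6.28 and 6.29 in controls. The means were 6.70 ± 0.08 with microvesicles and 6.29 ± 0.01 in controls (SD, n = 2 each), a log2 fold change of 0.42 (SE 0.17, 95% confidence interval 0.013 to 0.82, limma adjusted p = 0.187). The groups did not overlap, and the difference was not past the threshold over all probes.

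Rab9, which returns mannose 6-phosphate receptors from late endosomes to the Golgi, had 5.16 and 5.36 with microvesicles and 4.78 and 4.93 in controls. The means were 5.26 ± 0.14 with microvesicles and 4.85 ± 0.11 in controls (SD, n = 2 each), a log2 fold change of 0.41 (SE 0.18, 95% confidence interval -0.016 to 0.83, limma adjusted p = 0.218). Again the groups were separate. Rab34, linked to the position of lysosomes, had 7.72 and 7.71 with microvesicles and 7.30 and 7.69 in controls, with means of 7.71 ± 0.003 with microvesicles and 7.49 ± 0.28 in controls (SD, n = 2 each). Its log2 fold change was 0.22 (SE 0.20, 95% confidence interval -0.24 to 0.68, limma adjusted p = 0.512), and control replicate 2 was level with the treated arrays.

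With the medians of all probes aligned Rab7b, Rab9 and Rab34 had -0.36, -0.050 and -0.68, a setting in which the median of all kept probes was -0.39. Relative to the median of all kept probes there, the values were 0.032, 0.34 and -0.29, so that Rab34 was below the median and Rab7b close to it.

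**Figure D4:**
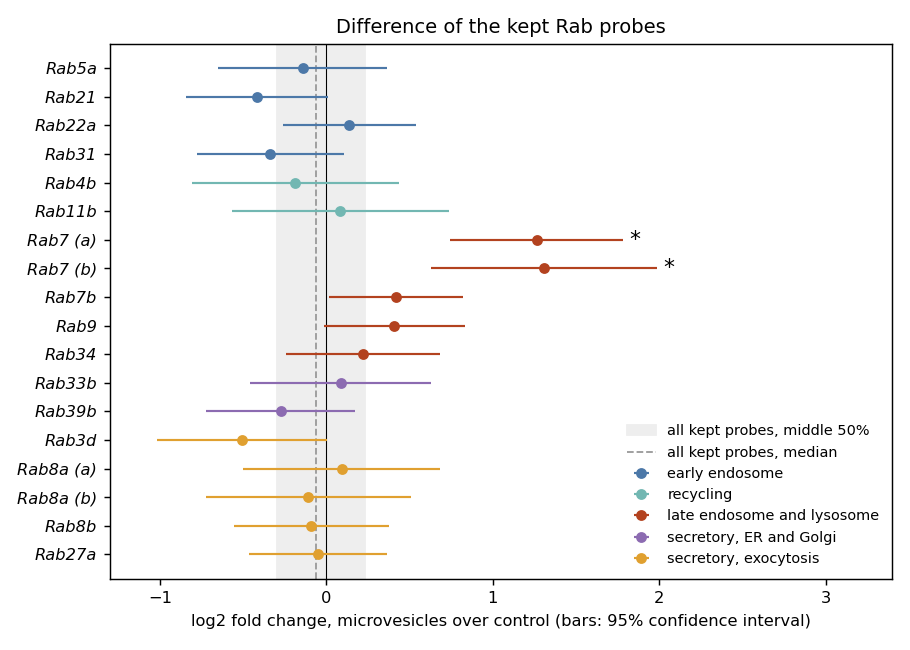
Log2 fold change of each kept Rab probe, microvesicles over control (x axis; bars, 95% confidence interval; colour, class; asterisk, adjusted p under 0.05). The dashed line and the grey band are the median and the middle 50% of all 3762 kept probes. Only the 2 Rab7 probes, at 1.26 and 1.30, carry an asterisk.

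Among the early endosome Rabs, none passed. Rab21, which takes part in the endocytosis of integrins, had 5.48 and 5.21 with microvesicles and 5.76 and 5.76 in controls. The means were 5.34 ± 0.19 with microvesicles and 5.76 ± 0.0007 in controls (SD, n = 2 each), a log2 fold change of -0.42 (SE 0.18, 95% confidence interval -0.85 to 0.0093, limma adjusted p = 0.21). Both treated arrays were below both controls.

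Rab31, which acts between the trans-Golgi network and endosomes, had 8.29 and 7.97 with microvesicles and 8.51 and 8.43 in controls. The means were 8.13 ± 0.23 with microvesicles and 8.47 ± 0.06 in controls (SD, n = 2 each), a log2 fold change of -0.34 (SE 0.19, 95% confidence interval -0.78 to 0.10, limma adjusted p = 0.311). With medians aligned over kept probes, Rab31 passed as lower, at -0.85 (limma adjusted p = 0.0497). Rab5a, the GTPase of early endosome fusion, had -0.14 on its kept probe (95% confidence interval -0.65 to 0.37). Rab22a, also of early endosomes, had 0.14 (95% confidence interval -0.26 to 0.54).

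Recycling Rabs had 2 kept probes. Rab11b, a regulator of the slow route back to the cell surface, had 8.57 and 8.32 with microvesicles and 8.79 and 7.94 in controls. Its log2 fold change was 0.083 (95% confidence interval -0.57 to 0.74), and the treated arrays lay between the controls. Rab4b, of the fast route, had -0.19 (95% confidence interval -0.81 to 0.43). These intervals are wide, and changes within them cannot be told from none on 4 arrays.

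Secretory Rabs had 7 kept probes for 6 genes, and none passed. Rab3d, which serves regulated secretion, had the lowest log2 fold change of the 18 probes. Its log2 signal was 4.78 and 4.60 with microvesicles and 5.46 and 4.94 in controls, with means of 4.69 ± 0.13 with microvesicles and 5.20 ± 0.36 in controls (SD, n = 2 each). The log2 fold change was -0.51 (SE 0.22, 95% confidence interval -1.02 to 0.0011, limma adjusted p = 0.203). Its signals were dim, with a brightness of 49.8 and 45.9 with microvesicles and 64.6 and 65.9 in controls.

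Rab8a, which carries cargo from the Golgi to the plasma membrane and the cilium, had 0.091 and -0.11 on its 2 kept probes, and the groups overlapped on both. Its paralog Rab8b had -0.091 on its kept probe and Rab27a, known for the docking of multivesicular bodies that release exosomes, -0.050. In the Golgi group Rab33b, also linked to autophagosomes, had 0.086 and Rab39b -0.28. Of these 6 probes the groups overlapped on all but that of Rab39b. Their 95% confidence intervals all held 0 and reached from -0.72 to 0.68. The other probe of Rab8b was not kept. Its brightness was 53.1 and 44.7 with microvesicles and 44.8 and 59.0 in controls, and the groups overlapped.

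**Figure D5:**
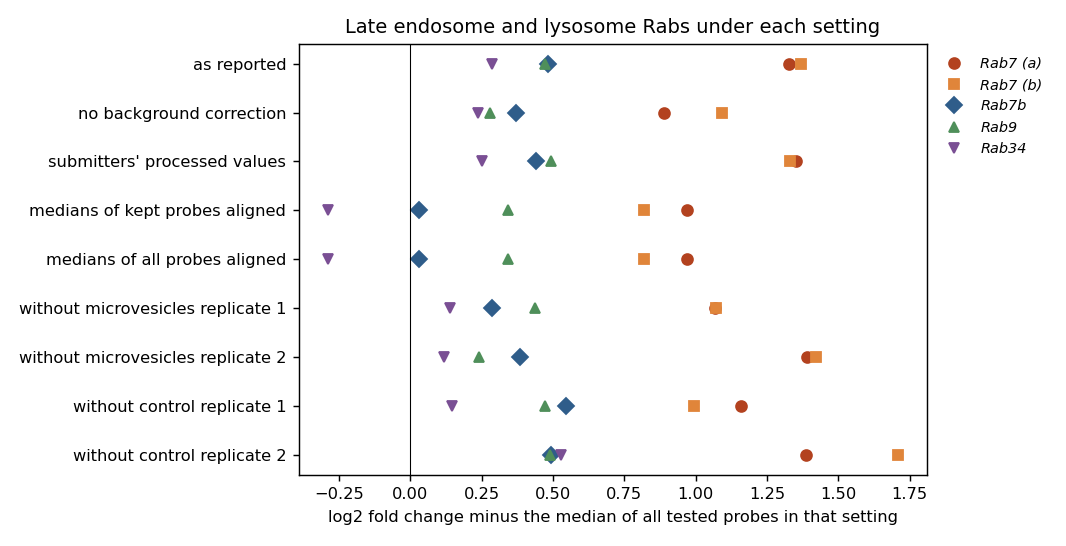
Log2 fold change of the 5 late endosome and lysosome probes, less the median of all probes tested in that setting (x axis), under the reported and 8 other settings (rows). Both Rab7 probes are at 0.82 or above in each row, whereas Rab34 is at -0.29 where medians of kept or of all probes are aligned.

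The proteins that load, switch and read Rabs were looked at from a list of regulators and effectors, of which 97 genes were on the array and 24 had kept probes (28 probes). Of the 28, 0 were called higher and 3 lower, where 3.43% of all kept probes were higher and 4.12% lower. Detection on all 4 arrays held for 22 of the 28. Of the 26 detected on at least 1 array of each group, 2 were lower. The median log2 fold change of the 28 was -0.26, and that of all kept probes -0.064. By role the medians were 0.20 for prenylation and GDP dissociation inhibitors (5 probes), -0.31 for exchange factors (5), -0.21 for GTPase-activating proteins (7) and -0.34 for effectors (11). Whether these medians moved with the scaling, as those of the Rab classes did, was not computed.

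Rabep2, which encodes a rabaptin that binds active Rab5, had a log2 signal of 5.87 and 5.11 with microvesicles and 6.54 and 6.72 in controls, a log2 fold change of -1.14 (SE 0.26, limma adjusted p = 0.0409). Rin2, an exchange factor for Rab5, had 5.93 and 6.13 with microvesicles and 6.72 and 6.90 in controls, a log2 fold change of -0.78 (SE 0.19, limma adjusted p = 0.0447). Sytl2, an effector of Rab27, was undetected on both arrays with microvesicles. Its level there was lower by at least 1.54-fold, taking the lowest signal among detected probes as the bound. The bound was not tested, and the call came from the fit on the normalized values (limma adjusted p = 0.0321). Sytl2 entered the test through the controls alone, where it was high, so that a lower value was favoured by the filter. Rin2 and Sytl2 each had 2 other probes, detected on no array.

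All 3 of these calls ended with the medians of all probes aligned (limma adjusted p = 0.444 each), where log2 fold changes were -1.71 for Rabep2 and -1.50 for Rin2. They also ended without the detection filter, at unchanged log2 fold changes, and when any 1 array was left out, with values from -1.56 to -0.79 for Rabep2 and -0.91 to -0.62 for Rin2. For Sytl2, at background with microvesicles, no value beyond the bound is given. Rin2 did not pass with the submitters' processed values (-0.75, limma adjusted p = 0.0585), nor Sytl2 with medians aligned over kept probes (adjusted p = 0.26).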

How the data were processed

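Total RNA was measured on 4 Illumina mouse bead arrays. BeadStudio (version 3.3) is the tool listed in the processing notes of the submitters. The deposited intensity values are mean bead brightness, with no background subtracted and no scaling between arrays. The deposited detection p-value sets a probe against the negative controls of its array. A table of processed intensity values, deposited by the authors, was used as an alternative, with a normalization not given in the sources used here. Bead numbers and bead standard errors, also deposited, were used as descriptions.

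All fits were run with limma 3.58.1 under R 4.3.3. Background was modelled on the detection p-values, 16 was added as an offset, and quantile-normalized values were taken to log2, where changes of dim probes come out too small. Testing was limited to the 3762 of 25697 probes that a whole group detected (detection p under 0.05). Two-sided tests came from lmFit and eBayes on group alone, and p-values were adjusted over the tested probes by the Benjamini-Hochberg method, with 0.05 as threshold. With 2 arrays in each group the smallest p of an exact permutation test is 0.333, and none was run. For a probe that a group did not detect, the fold is a bound, taken on each array from the lowest detected signal or from the probe itself if that was higher. The number of arrays limits the precision.

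The platform annotation gave the symbols, and the gene table of RefSeq (GRCm38.p6) held all 57. Promoter windows came from a separate RefSeq table of that build, with entries for 47. Classes were assigned from textbook roles. Members and lists were chosen with earlier results of these data known. Every gene with a kept probe is named, with full statistics for called members and the 3 largest differences in each direction that did not pass. Alternatives were no background correction, other scalings, the processed values, other detection filters, trend and robust estimation, the replicate number as a block and leaving out each array.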

Additional observations from a re-analysis of the deposited data

How the results depend on the processing

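Against 2 Rab probes called higher and 0 lower, the counts were 0 and 0 when medians of all probes were aligned (limma, 1 at an unadjusted p under 0.05), where 0 and 0 of all 3762 probes passed (398 unadjusted), 0 and 0 with no detection filter (7 of 87 unadjusted), where 14 and 15 of all 25697 passed, and 2 and 1 when medians were aligned over kept probes. Leaving out 1 array gave 0 higher and 0 lower, with 3 to 4 unadjusted, where 0 to 9 of all probes were higher and 0 to 1 lower. Such a fit borrows the spread of the lone sample from the group with 2, and 4600 to 5464 probes entered it. The median log2 fold change of the Rab probes was 0.017 as reported and -0.38 when the medians of all probes were aligned, where that of all kept probes was -0.39. Over the fits that left out 1 array it ranged from -0.13 to 0.22, with 18 to 24 Rab probes tested. The median of all tested probes ranged from -0.13 to 0.11 over the same fits.

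With the medians of all probes aligned, which shifted the median of all kept probes to -0.39, signs turned for Rab7b (-0.36), Rab11b (-0.84), Rab22a (-0.43), Rab33b (-0.072), Rab34 (-0.68), Rab9 (-0.050) and 1 probe of Rab8a (-0.43). With medians aligned over kept probes they turned for Rab11b (-0.40), Rab27a (0.26), Rab34 (-0.24), Rab39b (0.041), Rab5a (0.17), Rab8b (0.25) and the other probe of Rab8a (0.14). Relative to the median of all kept probes both shifts gave the same values, with Rab9 (0.34), Rab33b (0.32) and Rab7b (0.032) above it and Rab22a (-0.041), 1 probe of Rab8a (-0.035), Rab34 (-0.29) and Rab11b (-0.45) below. The last 4 had been above that median as reported, at 0.20, 0.16, 0.28 and 0.15. None of these differences had passed, and none passed there. Over the fits that left out 1 array, values ranged from -0.37 to 0.51 for Rab11b, -0.12 to 0.023 for Rab27a, -0.23 to 0.45 for Rab33b, -0.63 to 0.18 for Rab4b, -0.31 to 0.14 for Rab5a, -0.22 to 0.40 and -0.48 to 0.29 for the probes of Rab8a, and -0.32 to 0.11 for Rab8b. Without a change of sign they ranged from 0.019 to 0.42 for Rab34, -0.52 to -0.18 for Rab31, -0.45 to -0.16 for Rab39b and -0.61 to -0.27 for Rab3d. Rab21, Rab31, Rab3d and both probes of Rab7 kept their sign in every setting. Beyond the common shift, the cause was not tested.

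With the replicate number as a block, 2 Rab probes were higher and 0 lower, and over all probes 140 and 173 against 129 and 155. Deviations from the group means correlated with r = -0.133 between samples of the same number and 0.133 with the numbers crossed. With 2 arrays in each group these 2 values must be equal with opposite sign. They therefore cannot decide whether the samples were paired, and the numbers were not taken as pairs. With the numbers crossed, a fit added after the data had been seen, 2 Rab probes were higher and 0 lower (190 and 206 over all probes).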

Other observations

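Rabac1, which encodes a receptor on Golgi and endosomal membranes that helps to recruit prenylated Rabs, had 2 kept probes with different values. On 1 probe the normalized log2 signal was 6.97 and 6.44 with microvesicles and 6.06 and 5.36 in controls, a log2 fold change of 0.99 (SE 0.28, limma adjusted p = 0.074). On the other it was 10.92 and 10.60 with microvesicles and 10.55 and 10.92 in controls, a log2 fold change of 0.026 (SE 0.21, adjusted p = 0.948). The groups were separate on the first and overlapped on the second, and neither passed.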
